A study of Mus musculus with 8 samples.

Results

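The 10 Notch pathway genes described here were the receptors Notch1, Notch2 and Notch3, the ligands Jag1, Jag2 and Dll1, the nuclear partners Rbpj and Maml2, and the target genes Hes1 and Hey1. They were chosen by gene symbol. All 10 were among the 23861 genes of the HFSC table, and 9 were among the 16231 genes of the EpdSC table. Hey1 was not analysed in EpdSCs. The RNA-seq data comprised 8 libraries of FACS-sorted mouse dorsal skin cells in telogen, the resting phase of the hair cycle, with 2 libraries per group. HFSCs, the hair follicle stem cells, were sorted as CD34+CD49f+Sca-1- cells, and EpdSCs, the stem cells of the interfollicular epidermis, as CD34-CD49f+Sca-1+ cells. The WT HFSC libraries came from 2-month-old mice and the Msx2-KO HFSC libraries from 6-month-old mice, so that age and genotype cannot be told apart in HFSCs. Both EpdSC groups, WT and Msx2-KO, came from 6-month-old mice. Library names also differed between WT and Msx2-KO in each cell type, by prefix in HFSCs and by number series in EpdSCs. What the names stand for is not given, and separate handling of the groups could not be told apart from genotype. WT animals were C57BL/6J mice matched by hair cycle. The methods name no strain for the Msx2-KO mice, and strain-matched littermates are mentioned only for the skin histology. A difference in strain could not be told apart from genotype. By the study's methods, the Msx2-KO mice were homozygous for a germline allele with a neomycin cassette ahead of exon 2 of Msx2. Such an allele is carried by every cell of the animal. The deposited counts are named cKO against WT, a label that the methods do not explain. Libraries of the Msx2-KO mice are called KO-labelled, since the counts do not check the genotype. The study names individual mice as the biological replicates of its in vivo experiments but does not say, for these libraries, whether each came from a single mouse, so a p-value measures only the spread between these libraries, which may be technical.

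Notch signalling passes between touching cells. A Jagged or Delta-like ligand on one cell binds a Notch receptor on its neighbour, proteases then cut the receptor, and the released intracellular part enters the nucleus, where it joins the DNA-binding protein RBPJ and a Mastermind-like coactivator to switch on genes such as Hes1 and Hey1. In skin the pathway is best known for its part in the commitment of basal keratinocytes to the suprabasal layers and for its activity in the hair follicle.

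The libraries differed in ways that touch these genes. HFSC totals ran from 3132974 to 11016659 estimated counts, of which the 10 genes took between 2665 and 7108. EpdSC totals, after division by the value of 1 count, ran from 15213664 to 21092710, of which the 9 genes took between 17864 and 38397. Mitochondrial and ribosomal RNA made up 11.2% and 41.4% of the counts in WT HFSCs and 57.0% and 62.5% in the KO-labelled HFSC libraries. Genes with a count above 0 numbered 22867 and 20229 in WT HFSCs, against 11749 and 14616 in the KO-labelled libraries. In EpdSCs the share of mitochondrial and ribosomal RNA was 26.9% and 19.1% in WT and 5.16% and 9.61% in the KO-labelled libraries. There, genes with a count above 0 numbered 15950 and 16021 in WT, against 12950 and 15286. The part of these differences in the levels of the Notch pathway genes was not tested. Msx2 itself had estimated counts of 53 and 7 in WT HFSCs and of 40 and 18 in the KO-labelled HFSC libraries. In EpdSCs its normalized values were 58.5 and 85.4 in WT and 150 and 22.2 in the KO-labelled libraries. Counts per gene do not separate the exons around the inserted cassette, so they do not check the genotype. The sorting marker Cd34 was present in every HFSC library, with 2995 and 2662 normalized counts in WT and 1081 and 876.7 in the KO-labelled libraries. Ly6a, which encodes Sca-1, was present in every EpdSC library, at 472 and 544 in WT and 826 and 3493 in the KO-labelled libraries. In HFSCs an endothelial list summed to 67.6 and 31.9 normalized counts in WT and 37.2 and 24.6 in the KO-labelled libraries. A fibroblast list summed to 292 and 391 in WT and 165 and 75.1 in the KO-labelled libraries. An immune list summed to 55.4 and 29.6 in WT HFSCs against 123 and 63.5, and a melanocyte list to 96.6 and 183 against 459 and 90.6. In EpdSCs the immune list summed to 536 and 41.7 in WT and 0 and 2.7 in the KO-labelled libraries.

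In HFSCs, 2 of the 10 Notch pathway genes, the receptor Notch3 and the target Hes1, had higher values in both KO-labelled libraries than in both WT libraries with an unadjusted p under 0.05. Their mean normalized counts were 5.37-fold and 3.93-fold those of WT. The ligand Jag1 was lower in both KO-labelled libraries with an unadjusted p under 0.05, and its WT mean was 2.02-fold that of these libraries. No gene of the 10 passed an adjusted p under 0.05 with a fold change over 2 in edgeR's quasi-likelihood test, DESeq2 or limma-trend. Across all 14422 genes tested, edgeR called 0 genes (0%), DESeq2 called 690 (4.78%) and limma-trend called 1407 (9.76%). At an unadjusted p under 0.05 the count was 3 of the 10, beside 18.1% of all genes tested, 5.3% higher and 12.8% lower. The 2 groups did not overlap in 5 of the 10 genes, 3 higher and 2 lower, beside 51.1% of all genes tested, 17.5% higher and 33.5% lower. The median log2 fold change of the 10 genes was 0.07, and that of all genes tested was -0.14. Normalized counts here are TMM-scaled to a library of 6101083 counts. For a single gene, 2 libraries against 2 allow no two-sided p under 0.333 in an exact permutation test.

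The count of called genes depended on which libraries were kept. Without Msx2-KO replicate 1, edgeR called 5 of the 10 genes (Notch3, Jag1, Maml2, Hes1 and Hey1), beside 36.6% of all genes tested. Without Msx2-KO replicate 2 it called 3 (Notch3, Rbpj and Hes1), beside 59.1% of all genes. In these fits the single library left is assumed to vary as the WT pair does. Without WT replicate 1 or WT replicate 2, edgeR called 0 of the 10 genes, beside 1.04% and 0.797% of all genes. It also called 0 of the 10 with library totals (0.354% of all genes), with at least 10 counts required in every library (0.025%) and with the replicate number as a block (1.6%).

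**Figure D1:**
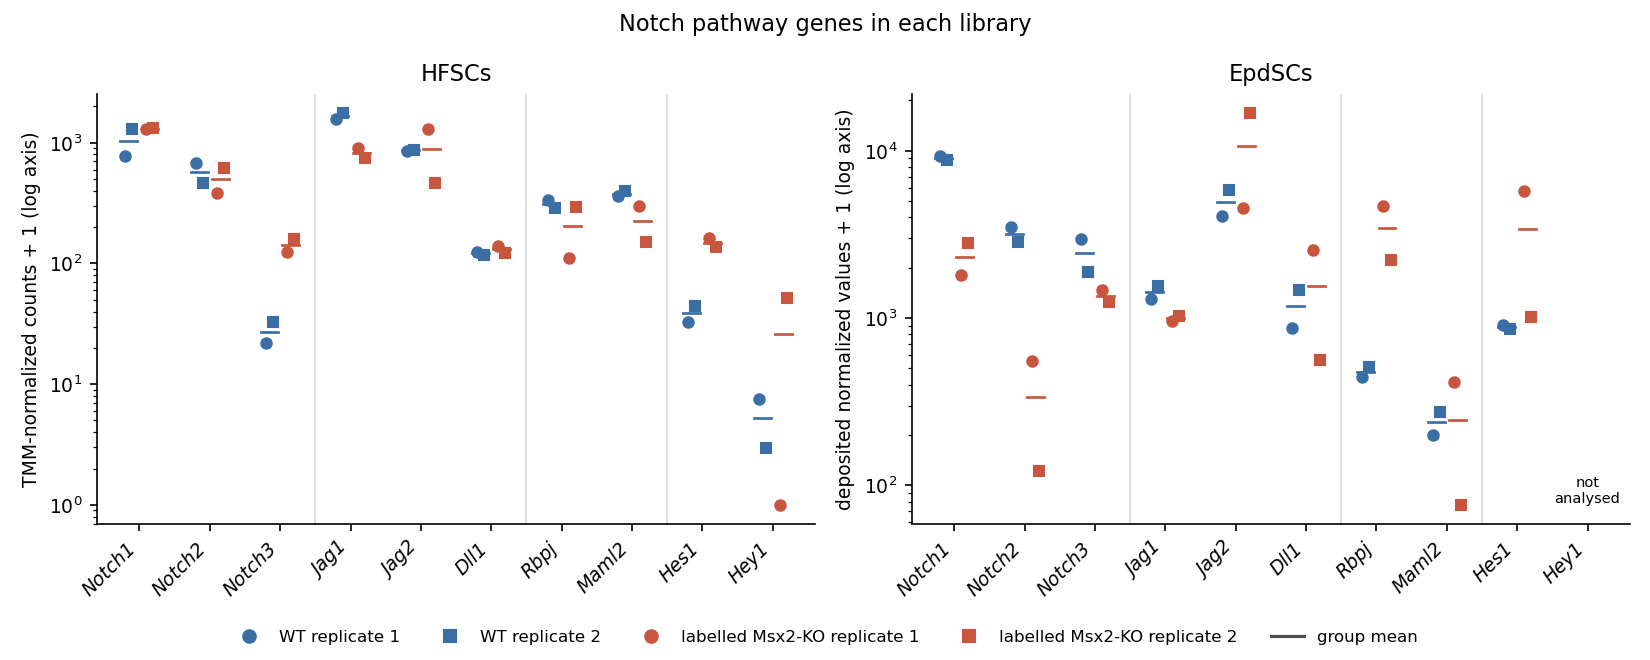
Values of the Notch pathway genes in each library, as TMM-normalized counts + 1 in HFSCs (left) and deposited normalized values + 1 in EpdSCs (right), on log axes with 1 symbol per library and short lines for group means. In HFSCs the KO-labelled libraries lay at 123 and 159 for Notch3, above 21.0 and 31.6 in WT, and in EpdSCs they lay at 4681 and 2231 for Rbpj, above 443 and 510 in WT.

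Among the HFSC receptors, Notch3 (chromosome 17, 32120820 to 32166852, minus strand, GRCm38) had normalized counts of 21.0 and 31.6 in WT and of 123 and 159 in the KO-labelled libraries. The groups did not overlap, and the estimated counts behind these values were 25.7 and 16 in WT and 185 and 123 in the KO-labelled libraries. On the log2 scale the difference was 2.42 (standard error, SE, 0.71, edgeR adjusted p = 0.183, from 0.143 to 0.731 over the alternatives that kept every library). An antisense gene, Gm17276, overlaps Notch3, and its estimated counts were 3.25 and 0 in WT and 0 and 41 in the KO-labelled libraries. No source used here says whether strand was used in counting. Notch1 (chromosome 2, 26457903 to 26516663, minus strand), the receptor most studied in epidermis, had 779 and 1294 in WT and 1301 and 1316 in the KO-labelled libraries. WT replicate 2 was within a percent of the lower KO-labelled library, and WT replicate 1 stood apart. For Notch1 the log2 fold change was 0.34 (SE 0.33, edgeR adjusted p = 0.747), -0.0054 without WT replicate 1 and -0.41 when scaled by library totals and not by TMM. Notch2 (chromosome 3, 98013527 to 98150361, plus strand) had 680 and 461 in WT and 386 and 614 in the KO-labelled libraries, with overlapping groups and a log2 fold change of -0.19 (SE 0.37, edgeR adjusted p = 0.907). Processed transcripts on the opposite strand overlap Notch1, and 2 unclassified transcripts on the same strand overlap Notch2.

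Like Notch3, most markers of suprabasal epidermis were higher in the KO-labelled HFSC libraries. A suprabasal list held 8 genes (Krt1, Krt10, Krtdap, Sbsn, Ivl, Lor, Flg and Grhl3). Of these, 6 were higher in both KO-labelled HFSC libraries than in both WT libraries, beside 17.5% of all genes tested. The summed level of the list was 1049 and 1220 normalized counts in WT and 4663 and 17385 in the KO-labelled libraries. The groups overlapped for Sbsn, and Lor was at 0 in 3 of the 4 libraries. The part of these markers in the level of Notch3 was not tested. A pericyte and smooth muscle list, cells in which Notch3 is also known, had a summed level of 2133 and 2110 in WT, against 1019 and 798 in the KO-labelled libraries. Nearly all of that sum was Cspg4, and its defining markers Rgs5, Pdgfrb and Myh11 were near 0 throughout, between 0 and 7.33 in WT and at 0 in both KO-labelled libraries. In bulk samples, fewer cells of a type and less RNA per cell cannot be told apart.

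Of the HFSC ligands, Jag1 (chromosome 2, 137081456 to 137116644, minus strand) had 1583 and 1761 normalized counts in WT and 904 and 754 in the KO-labelled libraries. The groups did not overlap. For Jag1 this gave a log2 fold change of -1.01 (SE 0.23, edgeR adjusted p = 0.143, from 0.0675 to 0.361 over the alternatives that kept every library), and -1.83 with library totals, a scaling that moved the median of all genes by -0.86. Jag2 (chromosome 12, 112907819 to 112929776, minus strand) had 861 and 864 in WT and 1299 and 464 in the KO-labelled libraries. Both WT libraries lay between the KO-labelled libraries, and the log2 fold change was 0.03 (SE 0.54, edgeR adjusted p = 0.991), -0.75 with library totals, -0.15 with limma-trend or the block, -0.016 without mitochondrial and ribosomal RNA, -0.92 without Msx2-KO replicate 1 and 0.58 without Msx2-KO replicate 2. Dll1 (chromosome 17, 15367354 to 15376872, minus strand), a Delta-like ligand, had 125 and 116 in WT and 139 and 120 in the KO-labelled libraries. Its groups overlapped, with a log2 fold change of 0.11 (SE 0.47, edgeR adjusted p = 0.966), which was -0.75 with library totals. A lincRNA on the opposite strand overlaps Dll1. Of 9 genes of the HFSC gate and bulge list, 8 were, like Jag1, lower in both KO-labelled libraries, beside 33.5% of all genes tested. The summed level of that list was 57783 and 54243 in WT and 27905 and 29909 in the KO-labelled libraries, and its part in the level of Jag1 was not tested.

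The nuclear partners were lower on average in the KO-labelled HFSC libraries, with libraries that were far apart. Rbpj (chromosome 5, 53466152 to 53657362, plus strand), the DNA-binding protein on which Notch transcription turns, had 337 and 288 in WT and 110 and 295 in the KO-labelled libraries. Only Msx2-KO replicate 1 lay below the WT libraries. Over both KO-labelled libraries the log2 fold change of Rbpj was -0.64 (SE 0.57, edgeR adjusted p = 0.721), and -1.52 without Msx2-KO replicate 2. Maml2 (chromosome 9, 13297957 to 13709388, plus strand), a Mastermind-like coactivator, had 362 and 396 in WT and 300 and 149 in the KO-labelled libraries. Both lay below WT, and the log2 fold change was -0.75 (SE 0.44, edgeR adjusted p = 0.523), from -1.37 without Msx2-KO replicate 1 to -0.34 without Msx2-KO replicate 2. Reads of Rbpj may be shared with a processed pseudogene, Rbpj-ps3. The sum of both was 564 and 428 in WT and 116 and 400 in the KO-labelled libraries. Genes on the opposite strand overlap Rbpj and Maml2, and unclassified transcripts on the same strand overlap Maml2. The most counted of these, Gm47087, had 217 and 92 estimated counts in WT and 150 and 90 in the KO-labelled libraries.

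Both target genes had low counts in HFSCs. Hes1 (chromosome 16, 30064384 to 30067796, plus strand), a transcriptional repressor induced by Notch, had 31.8 and 43.4 normalized counts in WT and 161 and 135 in the KO-labelled libraries, from 39 and 22 estimated counts in WT and 242 and 104 in the KO-labelled libraries. The groups did not overlap. On the log2 scale Hes1 differed by 1.98 (SE 0.63, edgeR adjusted p = 0.216, from 0.162 to 0.821 over the alternatives that kept every library), and 1.2 with library totals. Hey1 (chromosome 3, 8663359 to 8667256, minus strand), a repressor of the same family, had 8 and 1 estimated counts in WT and 0 and 39 in the KO-labelled libraries. Only Msx2-KO replicate 2 stood above WT, and the log2 fold change of 2.49 had a standard error of 2.59 (edgeR adjusted p = 0.774) and was -0.026 with the replicate number as a block.

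In EpdSCs, Rbpj was higher in both KO-labelled libraries, with a mean 7.26-fold that of WT. Notch1 and Notch2 were lower, with WT means 3.92-fold and 9.39-fold those of the KO-labelled libraries. These 3 of the 9 genes had an unadjusted p under 0.05, beside 35.3% of all 16231 genes tested, 12.2% higher and 23.1% lower. Fold changes of low genes come out too small on the log2(value + 1) scale that limma was given. On it 0 of the 9 passed an adjusted p under 0.05 with a fold change over 2, beside 9.35% of all genes. Of all genes, 1.57% were called higher and 7.78% lower. With edgeR on the estimated counts recovered from these values, 0 of the 9 and 0 of all genes were called, and 5180 genes had an unadjusted p under 0.05. The 2 groups did not overlap in 6 of the 9 genes, 2 higher and 4 lower, beside 72.3% of all genes, 27.8% higher and 44.5% lower. The median log2 fold change was -0.41 for the 9 genes and -0.64 for all genes.

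As in HFSCs, the EpdSC genes called depended on single libraries. Without Msx2-KO replicate 1, limma called Notch1, Notch2 and Rbpj, beside 37.6% of all genes. Without Msx2-KO replicate 2 it called Hes1 as well, beside 63.9% of all genes. Without WT replicate 1 or without WT replicate 2 it called 0 genes in all, against 1518. With every library kept, a pseudocount of 10 called Rbpj, beside 12.2% of all genes. Members called were 0 with a pseudocount of 0.1 (6.84% of all genes), a mean of at least 10 (8.36%), equal totals (8.43%), mitochondrial and ribosomal RNA left out (9%) and the replicate block (7.83%).

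Of the EpdSC receptors, Notch1 had normalized values of 9339 and 8759 in WT and of 1820 and 2798 in the KO-labelled libraries. The groups did not overlap. On the log2 scale Notch1 differed by -2.00 (SE 0.51, limma adjusted p = 0.0898, from 0.0573 to 0.183 over the alternatives that kept every library). The transcript 0610009E02Rik on the opposite strand had 4.33 and 2.85 in WT and 2.11 and 591 in the KO-labelled libraries. Notch2 had 3517 and 2841 in WT and 556 and 121 in the KO-labelled libraries. Both lay below WT and differed more from each other than the WT libraries did. The log2 fold change of Notch2 was -3.60 (SE 0.92, limma adjusted p = 0.0904, from 0.0517 to 0.129 over the alternatives that kept every library), -4.69 without Msx2-KO replicate 1 and -2.51 without Msx2-KO replicate 2. Notch3 had 2985 and 1893 in WT and 1481 and 1244 in the KO-labelled libraries. Its groups did not overlap, and its log2 fold change of -0.81 (SE 0.52, limma adjusted p = 0.318) was close to the median of all genes. Gm17276, antisense to Notch3, had 43.3 and 40.1 in WT and 0 and 0.674 in the KO-labelled libraries. The summed level of the suprabasal list was 273223 and 194150 in WT and 43094 and 72510 in the KO-labelled libraries. Of its 8 genes, 6 were lower in both, beside 44.5% of all genes, and Flg was at 0 in 1 KO-labelled library. The summed level of the list of sorting and basal genes, mostly Krt5 and Krt14, went the other way. It was 199149 and 236085 in WT, against 646343 and 457771 in the KO-labelled libraries. Of the 6 genes of this list, 4 were higher in both, beside 27.8% of all genes, while Trp63 overlapped. Itgb4 was lower in both, at 7432 and 11067 in WT and 183 and 1148 in the KO-labelled libraries. Of 8 HFSC gate and bulge genes analysed in EpdSCs, 5 were higher in both and 0 lower, beside 27.8% and 44.5% of all genes. The pericyte list, of which Rgs5, Pdgfrb and Myh11 were not analysed in EpdSCs, summed to 565 and 856 in WT and 132 and 139 in the KO-labelled libraries. Most of the WT sum was Cspg4, at 516 and 829 in WT and 5.09 and 121 in the KO-labelled libraries. Acta2 overlapped, at 24.9 and 22.8 in WT and 127 and 16.2 in the KO-labelled libraries. The part of these lists in the levels of the 3 receptors and of Rbpj was not tested.

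The EpdSC ligands gave no shared direction. Jag2 had 4069 and 5792 in WT and 4522 and 16804 in the KO-labelled libraries. Only Msx2-KO replicate 2 stood above WT, with a log2 fold change over both libraries of 0.84 (SE 0.85, limma adjusted p = 0.492), and of -0.10 without that library. Jag1 had 1302 and 1544 in WT and 963 and 1033 in the KO-labelled libraries. Both lay below WT, with a log2 fold change of -0.51 (SE 0.47, limma adjusted p = 0.459), which was less negative than the median of all genes. Dll1 had 877.3 and 1472 in WT and 2535 and 560 in the KO-labelled libraries, which lay on either side of the WT pair. The log2 fold change of Dll1 was 0.07 (SE 0.95, limma adjusted p = 0.962), -0.20 with equal totals and -0.47 when mitochondrial and ribosomal RNA was left out and totals were made equal, which moved the median of all genes by -0.50.

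Rbpj was the member with the smallest p in EpdSCs, with 443 and 510 in WT and 4681 and 2231 in the KO-labelled libraries. The groups did not overlap. On the log2 scale Rbpj differed by 2.76 (SE 0.60, limma adjusted p = 0.0726, from 0.0481 to 0.106 over the alternatives that kept every library). Of these, a pseudocount of 10 put Rbpj past the threshold. The sum of Rbpj and Rbpj-ps3 was 681 and 742 in WT and 4794 and 2267 in the KO-labelled libraries, while the pseudogene alone had 238 and 232 in WT and 113 and 35.5 in the KO-labelled libraries. Maml2 had 200 and 275 in WT and 411 and 75.5 in the KO-labelled libraries, on either side of WT. Its log2 fold change was -0.41 (SE 1.01, limma adjusted p = 0.779), and 0.81 without Msx2-KO replicate 2. Hes1 had 907 and 864 in WT and 5779 and 1013 in the KO-labelled libraries. Both lay above WT, replicate 2 only slightly, and the log2 fold change was 1.45 (SE 1.02, limma adjusted p = 0.349), 2.71 without Msx2-KO replicate 2 and 0.19 without Msx2-KO replicate 1.

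**Figure D2:**
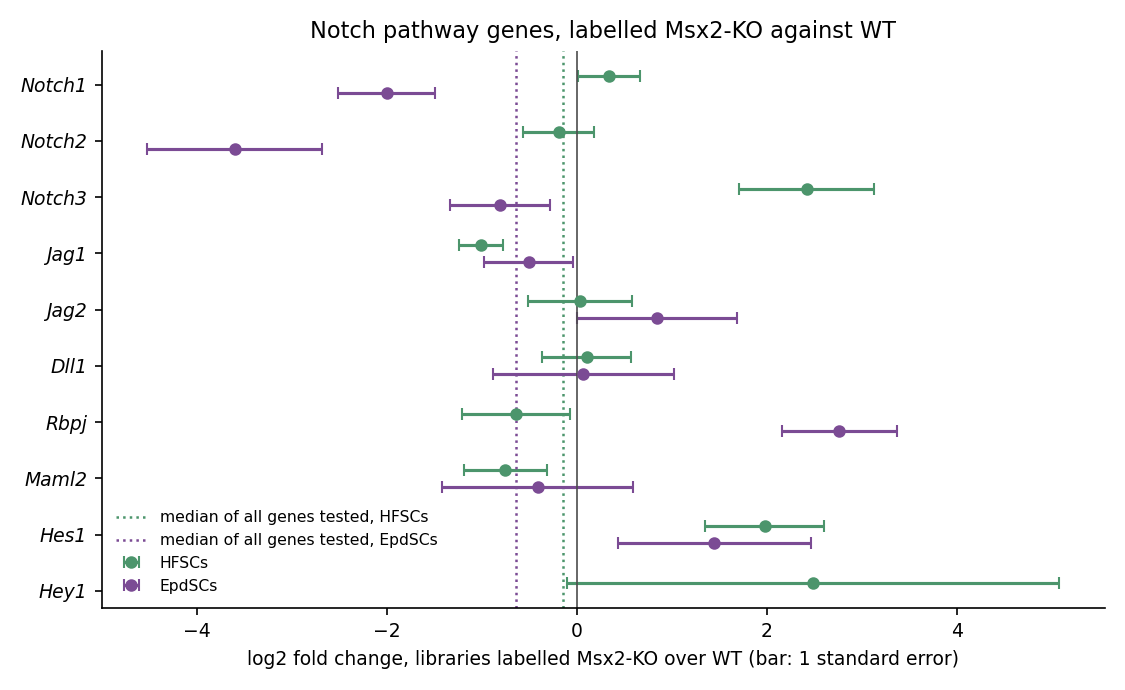
Log2 fold changes of the Notch pathway genes, KO-labelled libraries over WT, with bars of 1 standard error, in HFSCs (green, edgeR) and EpdSCs (purple, limma on log2(value + 1)), and dotted lines for the median of all genes tested. Notch3 and Hes1 lay at 2.42 and 1.98 in HFSCs, and Notch2 and Rbpj lay at -3.60 and 2.76 in EpdSCs.

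The promoter windows of these genes were searched for TGGGAA on either strand, the core of the sequence that RBPJ binds. No window was found for the target genes Hes1 and Hey1, which were therefore not searched. RefSeq windows on GRCm38.p6 of 300 bases, from 250 before to 50 after a transcription start, were used for the other 8 of the 10 genes, 11 windows in all. Of these, 3 held the motif (27.3%), against 25.6% of 32851 windows of all genes. The windows that held it were both windows of Rbpj, which share a site, and 1 of the Maml2 windows, all at starts inside the span of the gene. An Rbpj and a Maml2 window are shown because Rbpj encodes the factor itself and had the largest positive log2 fold change of the EpdSC members, and Maml2 its coactivator. The capitals mark TGGGAA, or TTCCCA where the motif is on the other strand. The Rbpj window held it 149 and 65 bases before the start, and the Maml2 window 145 bases before it. A match is a description of these letters only.
Rbpj, chr5:53590096-53590395, plus strand: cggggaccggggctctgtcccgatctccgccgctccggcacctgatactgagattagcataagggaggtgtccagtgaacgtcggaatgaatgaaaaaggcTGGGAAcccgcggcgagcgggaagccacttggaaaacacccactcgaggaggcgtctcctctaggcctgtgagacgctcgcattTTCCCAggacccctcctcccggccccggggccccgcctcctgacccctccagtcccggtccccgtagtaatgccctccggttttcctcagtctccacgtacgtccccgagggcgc
Maml2, chr9:13662210-13662509, plus strand: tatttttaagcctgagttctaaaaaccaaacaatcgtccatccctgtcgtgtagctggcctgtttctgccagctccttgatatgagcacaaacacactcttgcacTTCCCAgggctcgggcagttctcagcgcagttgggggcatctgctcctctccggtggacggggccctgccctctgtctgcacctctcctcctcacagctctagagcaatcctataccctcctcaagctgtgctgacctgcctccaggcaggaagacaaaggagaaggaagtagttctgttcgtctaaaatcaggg

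The make-up of the receptors within a library did not depend on how the library was scaled. In HFSCs, Notch3 took 1.42% (95% exact binomial interval 0.937% to 2.09%) and 1.77% (1.01% to 2.86%) of the counts of the 3 receptors in WT. In the KO-labelled libraries it took 6.79% (5.88% to 7.80%) and 7.63% (6.38% to 9.03%). These intervals cover counting error only. Both KO-labelled libraries lay above both WT libraries, and the intervals did not meet. In EpdSCs the share of Notch3 was 18.8% and 14% in WT and 38.4% and 29.9% in the KO-labelled libraries, again without overlap, although the level of Notch3 was lower there. Notch2 took 22.2% and 21.1% in WT EpdSCs and 14.4% and 2.91% in the KO-labelled libraries. Its share in HFSCs was 45.9% and 25.8% in WT and 21.3% and 29.4% in the KO-labelled libraries, where the groups overlapped. Notch1 took the largest share of the counts in every library, from 47.2% in EpdSC Msx2-KO replicate 1 to 72.4% in HFSC WT replicate 2. Per kilobase it did not lead in all, since Notch2 was above it in HFSC WT replicate 1 (52.4% against 45.5%) and Notch3 in EpdSC Msx2-KO replicate 1 (50.5% against 35.3%).

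Among the ligands, Jag1 led in WT HFSCs and Jag2 in EpdSCs. Jag1 took 61.6% (95% exact binomial interval 59.9% to 63.3%) and 64.2% (61.7% to 66.8%) of the ligand counts in WT HFSCs. In the KO-labelled HFSC libraries it took 38.6% (37.0% to 40.2%) and 56.3% (53.3% to 59.4%), both below WT. In EpdSCs the share of Jag1 was 20.8% and 17.5% in WT and 12.0% and 5.62% in the KO-labelled libraries, also both below WT. Jag2 filled most of the rest, with 33.5% and 31.5% in WT HFSCs, 55.5% and 34.7% in the KO-labelled HFSC libraries and up to 91.3% in EpdSC Msx2-KO replicate 2. Dll1 took between 3.04% and 31.6%, and both of these extremes were EpdSC KO-labelled libraries.

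**Figure D3:**
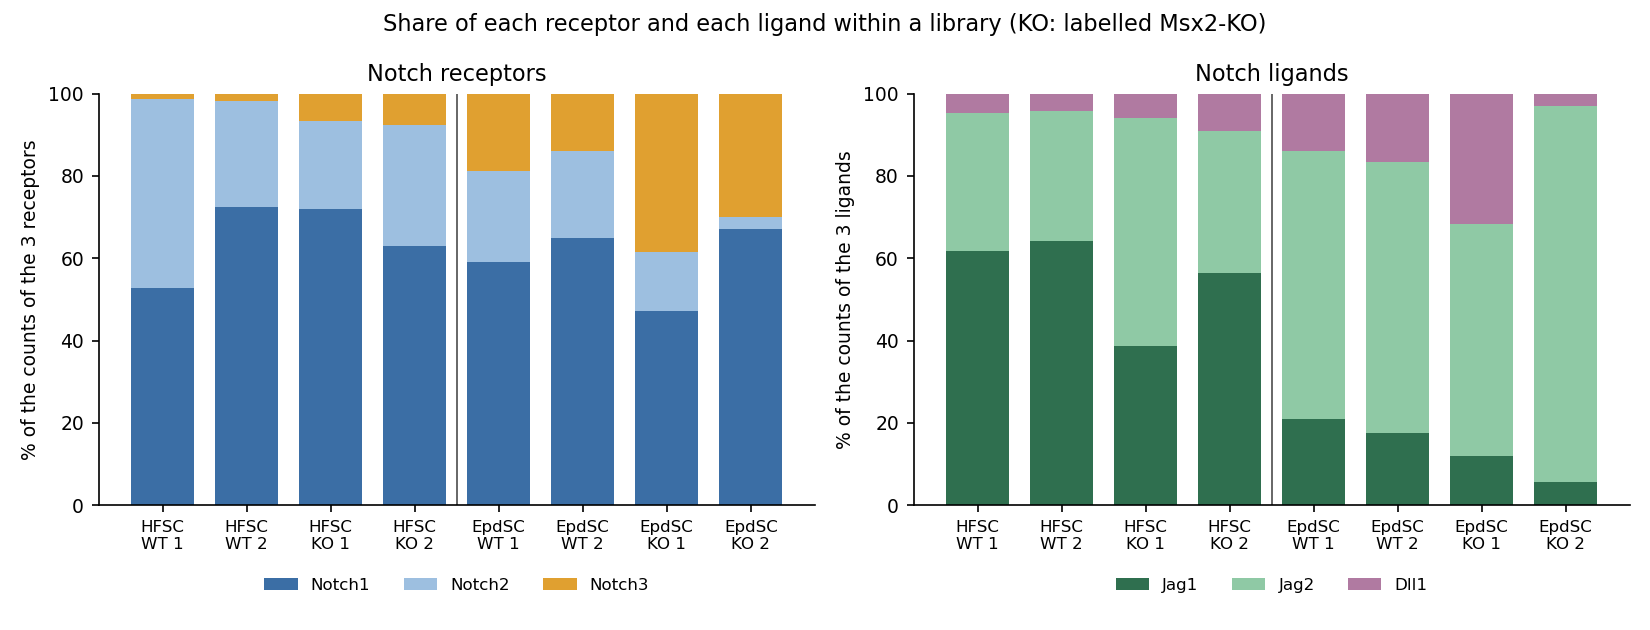
Share of each receptor (left) and each ligand (right) in the summed counts of the 3 genes, in percent, with 1 bar per library and KO standing for labelled Msx2-KO. The share of Notch3 was 6.79% and 7.63% in the KO-labelled HFSC libraries against 1.42% and 1.77% in WT, and 38.4% and 29.9% in those of EpdSCs against 18.8% and 14% in WT.

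Ratios of length-scaled levels within a library were chosen after the values were seen and were not tested. The ratio of Notch1 to Notch3 per kilobase was 21.1 and 23.3 in WT HFSCs and 6.02 and 4.69 in the KO-labelled libraries. In EpdSCs it was 1.78 and 2.63 in WT and 0.699 and 1.28 in the KO-labelled libraries, lower than WT in both cell types. The ratio of Hes1 to Notch1 was 0.285 and 0.234 in WT HFSCs and 0.864 and 0.715 in the KO-labelled libraries. In EpdSCs it was 0.678 and 0.689 in WT and 22.2 and 2.53 in the KO-labelled libraries. The ratio of Jag2 to Jag1 was 0.455 and 0.410 in WT HFSCs against 1.2 and 0.515, and 2.61 and 3.14 in WT EpdSCs against 3.93 and 13.6. In both cell types, and for both of these ratios, the KO-labelled libraries lay above WT. The ratio of Rbpj to Maml2 was 1.14 and 0.959 in WT EpdSCs against 5.89 and 15.3, while in HFSCs it was 0.482 and 0.377 against 0.189 and 1.02, with overlap. Notch1 over Notch2 overlapped in HFSCs, at 0.869 and 2.13 in WT and 2.55 and 1.62 in the KO-labelled libraries. In EpdSCs that ratio was 2.01 and 2.34 in WT and 2.48 and 17.5 in the KO-labelled libraries.

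The order of the genes by level differed between the groups. On normalized counts per kilobase of exons, Jag1 led WT HFSCs at 287 ± 21.7 (SD, n = 2) and Jag2 followed at 124 ± 0.301 (SD, n = 2). Then came Notch1 at 72.8 ± 25.6, Maml2 at 57.4 ± 3.59 and Notch2 at 52.9 ± 14.4 (SD, n = 2 each), whose libraries overlapped. Dll1, Rbpj, Hes1, Notch3 and Hey1 followed, each below the one before in both libraries, from 28.6 ± 1.38 for Dll1 to 1.3 ± 0.984 for Hey1. In the KO-labelled HFSC libraries, Jag1 at 142 ± 18.3 and Jag2 at 127 ± 84.8 overlapped, and so did Jag2 and Notch1 at 91.9 ± 0.722 (SD, n = 2 each). Hes1 followed at 72.5 ± 9.07, below Notch1 and above Notch2 in both libraries, while Notch3 at 17.4 ± 3.18 overlapped with Rbpj at 15.9 ± 10.2 (SD, n = 2 each).

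In WT EpdSCs, on deposited values per kilobase, Jag2 at 708 ± 175 and Notch1 at 636 ± 28.8 led and overlapped, above Hes1 at 435 ± 14.8 (SD, n = 2 each). Notch3, Notch2, Dll1 and Jag1 overlapped as neighbours between 302 ± 95.5 and 244 ± 29.4, and Rbpj at 37.4 ± 3.71 and Maml2 at 36.0 ± 8.0 came last (SD, n = 2 each). In the KO-labelled EpdSC libraries, Hes1 at 1667 ± 1654 and Jag2 at 1531 ± 1247 led with a wide spread. Rbpj followed Dll1 at 271 ± 136, overlapping with Dll1 before it and Jag1 after it, and Notch2 was last at 31.4 ± 28.5, overlapping with Maml2 (SD, n = 2 each).

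HFSC and EpdSC tables were normalized separately, so levels between cell types are given without a test. Per kilobase and per 1000000 counts of the 12011 nuclear protein-coding genes in both tables, Jag1 stood at 103 and 105 in WT HFSCs against 22.3 and 26.5 in WT EpdSCs. Notch3 stood at 0.986 and 1.35 in WT HFSCs against 36.9 and 23.4 in WT EpdSCs, and Hes1 at 5.93 and 7.37 against 44.4 and 42.4. On this scale and on that of all 15337 shared genes, WT EpdSCs were above WT HFSCs for Notch1, Notch3, Dll1 and Hes1, and below them for Jag1, Rbpj and Maml2. Notch2 and Jag2 overlapped on the scale of all shared genes and were higher in WT EpdSCs on the other. The WT groups of the cell types also differed in age and in the prefix of their library names. The KO-labelled HFSC libraries shared both with the WT EpdSC libraries. Age and separate handling could not be told apart from cell type here. In the KO-labelled HFSC libraries, Notch3 was at 6.25 and 8.40 and Hes1 at 32.4 and 28.2 on the protein-coding scale, between the WT levels of the cell types.

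Jag2 had the highest mean level of the members per kilobase over the 8 libraries, 47.3 per 1000000 counts of all shared genes, ahead of Hes1 at 29.1 and Jag1 at 27.0. This rests on EpdSC Msx2-KO replicate 2, without which Jag2 was at 29.8 and Jag1 at 29.1, and on the protein-coding scale Jag1 then led at 54.7 against 52.3. Among 8762 genes in both tables, the 3 whose log2 levels per 1000000 counts followed it most closely over the 8 libraries were Abitram, Lims1 and Cdca7. Their root mean square differences from Jag2, after centring, were 0.208, 0.267 and 0.308, against a standard deviation of 1.28 for Jag2 itself. Lims1 encodes an adaptor of integrin adhesions, and Cdca7 a nuclear protein known as a target of MYC. The 8 points share their depth, scaling and library quality, and EpdSC Msx2-KO replicate 2 was the highest for all 3.

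A list of 51 further Notch pathway genes was taken by role, from ligand modification to receptor cleavage and nuclear corepressors. In HFSCs 38 were tested and 0 were called with edgeR or DESeq2, while limma-trend called 1, Maml3. An unadjusted p under 0.05 was found for 1 higher and 1 lower gene, beside 5.3% and 12.8% of all genes. The groups did not overlap in 6 higher and 12 lower genes, beside 17.5% and 33.5% of all genes. The median log2 fold change was -0.18, beside -0.14 for all genes. Maml3, a Mastermind-like coactivator like Maml2, had 420 and 375 normalized counts in WT and 140 and 131 in the KO-labelled libraries. The groups stood well apart, with a log2 fold change of -1.56 (SE 0.29, edgeR adjusted p = 0.143, from 0.0450 to 0.303 over the alternatives that kept every library). Nrarp, a Notch target whose product limits Notch signalling, had 16.2 and 35.4 in WT and 142 and 114 in the KO-labelled libraries. Both lay above WT, with a log2 fold change of 2.32 (SE 0.82, edgeR adjusted p = 0.260). Of the 9 cleavage genes tested, such as the Adam proteases and the subunits of gamma-secretase, 5 were lower in both KO-labelled libraries and 0 were higher, beside 33.5% and 17.5% of all genes. At an unadjusted p under 0.05 in edgeR, 0 of these 9 were lower and 0 higher, beside 12.8% and 5.3% of all genes.

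In EpdSCs 39 of the 51 genes were tested, and 1 was called with limma, beside 9.35% of all genes. That gene was Ctbp1, a corepressor of the RBPJ complex and of many other factors, with 1356 and 1353 in WT and 24422 and 17752 in the KO-labelled libraries. It rose by a log2 fold change of 3.94 (SE 0.49, limma adjusted p = 0.0311, from 0.0293 to 0.0604 over the alternatives that kept every library). Without either WT library, with the edgeR test on recovered counts or with the replicate number as a block (adjusted p = 0.0536), Ctbp1 was no longer called. In HFSCs Ctbp1 had 212 and 292 in WT and 178 and 243 in the KO-labelled libraries, with overlap. Poglut1, which adds glucose to the EGF repeats of Notch receptors, had 252 and 261 in WT and 4066 and 2019 in the KO-labelled libraries. Its log2 fold change was 3.48 (SE 0.59, limma adjusted p = 0.0502), just outside the threshold. Over the alternatives that kept every library, its limma or edgeR adjusted p ran from 0.0397 to 0.0733. Poglut1 was called with a pseudocount of 10, with equal totals and when mitochondrial and ribosomal RNA was also left out. Nrarp had 1258 and 762 in WT and 3080 and 2169 in the KO-labelled libraries. Both lay above WT, with a log2 fold change of 1.40 (SE 0.56, limma adjusted p = 0.168).

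Over the whole EpdSC list, 6 higher and 4 lower genes had an unadjusted p under 0.05, beside 12.2% and 23.1% of all genes. Groups without overlap were found in 14 higher and 11 lower genes, beside 27.8% and 44.5% of all genes. The median log2 fold change was 0.09, beside -0.64 for all genes, and it turned to -0.18, beside -0.88, with equal totals and to -0.44, beside -1.14, when mitochondrial and ribosomal RNA was also left out. Of the 10 cleavage genes, 9 had a positive log2 fold change, with a median of 0.31, but 7 were positive with equal totals and 4, with a median of -0.23, when mitochondrial and ribosomal RNA was also left out. On the deposited values 5 of the 10 were higher in both KO-labelled libraries and 0 were lower, beside 27.8% and 44.5% of all genes. Named after their values were seen, the gamma-secretase subunits Aph1a and Aph1b had log2 fold changes of 2.09 (standard error 0.63) and 2.56 (standard error 0.84), and neither was called. Of the 13 nuclear complex and corepressor genes tested, 4 were higher in both KO-labelled libraries and 5 were lower, beside the same shares of all genes.

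**Figure D4:**
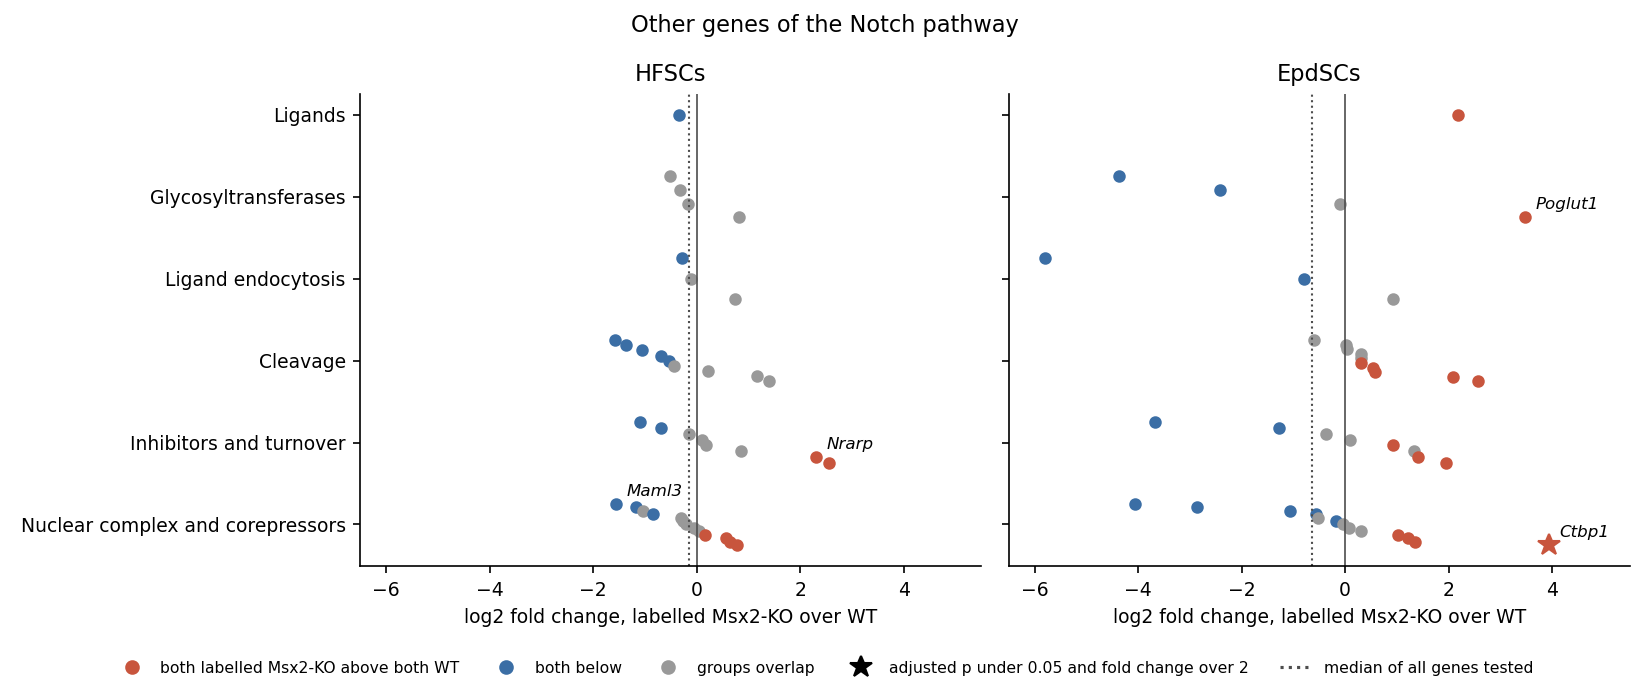
Log2 fold changes of the other Notch pathway genes by role, KO-labelled libraries over WT, in HFSCs (left) and EpdSCs (right), where each point is a gene, colour shows whether the KO-labelled libraries lay above, below or among WT, and a star marks a called gene. Ctbp1 at 3.94 in EpdSCs was the called gene, and Maml3 and Nrarp lay at -1.56 and 2.32 in HFSCs.

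**Figure D5:**
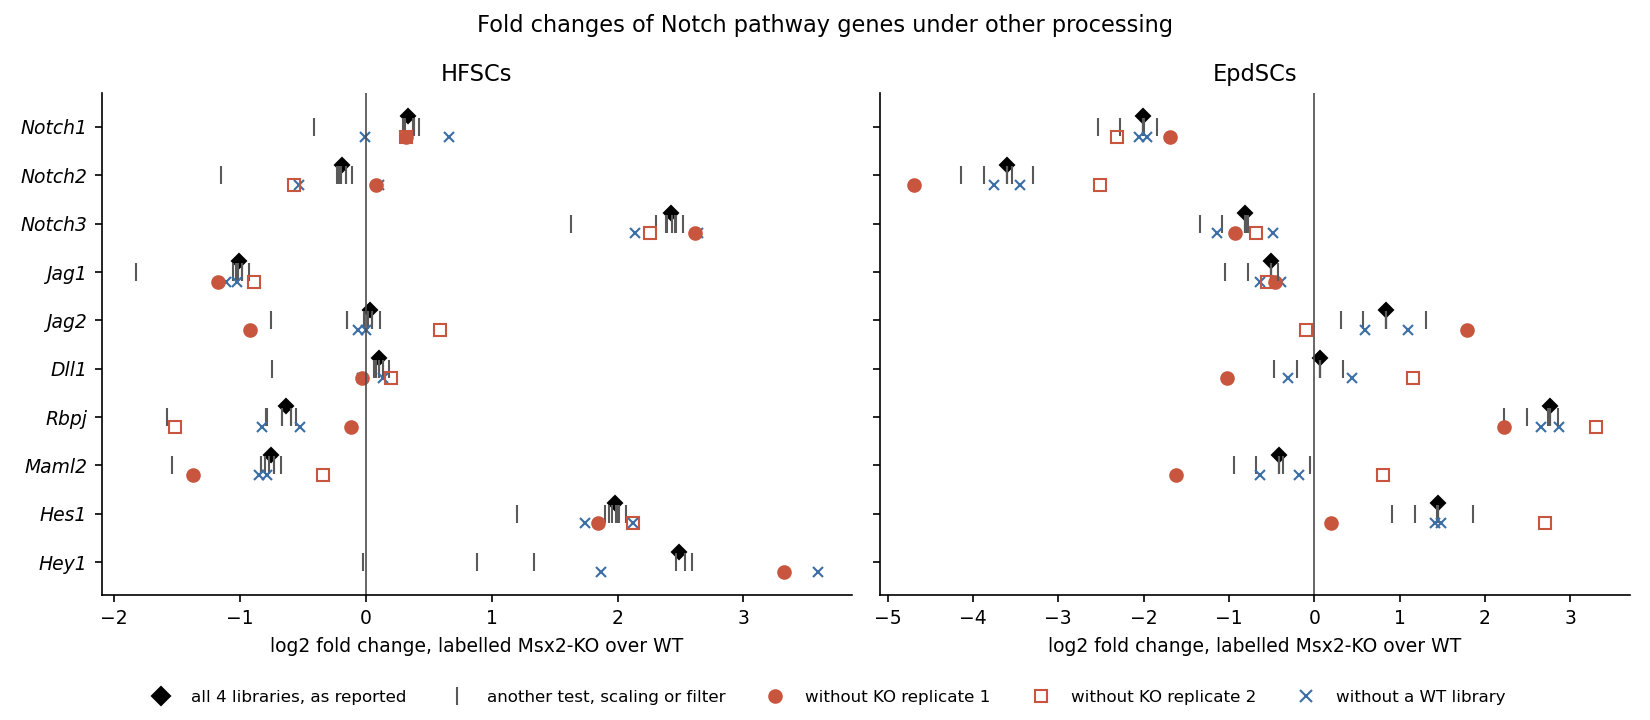
Log2 fold changes of the Notch pathway genes as reported (diamonds), under another test, scaling or filter (ticks) and without 1 library (other symbols), in HFSCs (left) and EpdSCs (right). In HFSCs Notch3 ran from 1.63 to 2.64 and Jag1 from -1.83 to -0.89, and in EpdSCs Rbpj ran from 2.23 to 3.30, while Notch1 in HFSCs ran from -0.41 with library totals to 0.66 without WT replicate 2.

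The plot of fold changes under other processing shows which members kept their direction. In HFSCs, Notch3, Jag1, Rbpj, Maml2 and Hes1 kept theirs under every alternative run, and Notch1, Notch2, Jag2, Dll1 and Hey1 did not. In EpdSCs, Notch1, Notch2, Notch3, Jag1, Rbpj and Hes1 kept theirs, and Jag2, Dll1 and Maml2 did not.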

How the data were processed

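The data were 8 bulk RNA-seq libraries, 2 per group, of FACS-isolated HFSCs and EpdSCs. Groups and ages were taken from the sample labels. The authors made SMARTer stranded total RNA libraries, used Partek Flow to align reads to GRCm38/mm10 with STAR (2.7.3a in the submitters' processing notes), with gene models of GENCODE release M25. For HFSCs the authors deposited estimated counts without normalization, in which reads shared between genes are split. For EpdSCs the deposited values are a normalized signal, estimated counts divided by 1 factor per library. The value of 1 count lay between 0.674 and 1.27 in the 4 libraries. Between 72.8% and 82.5% of values under 1000 counts came out whole within 0.01. The authors' own comparisons, with fold changes, ratios, p-values and log2 values that the authors deposited, were not used. Columns with values per library that matched no sample numbered 0.

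For HFSCs, edgeR 4.0.16 (glmQLFTest, TMM factors) was run on rounded counts of the 14422 genes that passed filterByExpr, where the common dispersion was 0.823. For EpdSCs, limma 3.58.1 was run on log2(value + 1) of all 16231 genes. Called genes had an adjusted p (Benjamini-Hochberg) under 0.05 with more than a 2-fold change. R 4.3.3 and Python 3.11.15 with matplotlib 3.10.9 were used, and each test was tested on simulated data. Gene lengths and positions came from GENCODE M21 on the same build and promoter windows from RefSeq. Alternatives were DESeq2 1.42.0, limma-trend with a prior count of 3, RLE factors, library totals, mitochondrial and ribosomal RNA left out, no filter, at least 10 counts in every library, pseudocounts of 0.1 and 10, a mean of at least 10, equal totals, a replicate block, no fold change minimum and each library left out. The edgeR test on recovered EpdSC counts and the protein-coding scale were added after the data were seen.

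The members and gene lists were chosen with earlier results of these data known. Named were all 10 members, every called gene of the wider list, and in each cell type the 3 genes of that list with the lowest unadjusted p, where the groups did not overlap and the mean was 50 or more. A gene that this rule names in both cell types is not reported here. For the likeness to Jag2, genes with a mean of at least 10 per 1000000 counts were compared. No test was made between the HFSC and EpdSC tables.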

Additional observations from a re-analysis of the deposited data

Results flagged for a closer look

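Opposite directions in the 2 cell types, with both KO-labelled libraries on one side of both WT libraries in HFSCs and on the other side in EpdSCs, were found for Notch1 and Notch3. The difference between the cell types was not tested, because the tables were normalized separately. The log2 fold change of Notch3 was 2.42 in HFSCs and -0.81 in EpdSCs, and the EpdSC value was close to the median of all EpdSC genes, -0.64. The suprabasal list also moved in opposite directions, higher in the KO-labelled HFSC libraries (4663 and 17385 against 1049 and 1220) and lower in those of EpdSCs (43094 and 72510 against 273223 and 194150), and its part was not tested. Notch1 had a log2 fold change of 0.34 in HFSCs, which turned to -0.41 with library totals and to -0.0054 without WT replicate 1, and of -2.00 in EpdSCs. Such opposite, non-overlapping directions were found in 2 of 9 members (22.2%), beside 16.5% of the 13151 genes tested in both cell types.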

How the results depend on the processing

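No alternative that kept all 4 HFSC libraries called a Notch pathway gene, and in EpdSCs only the pseudocount of 10 did, with 1 called, Rbpj (adjusted p = 0.0481 from limma). Leaving out 1 library gave from 0 to 5 members called in HFSCs and from 0 to 4 in EpdSCs, against 0 in both. In the same way all HFSC genes called ran from 132 to 9272 and those of the wider list from 0 to 15, against 0 in both, and in EpdSCs from 0 to 10376, against 1518, and from 0 to 19, against 1. The HFSC libraries without which most genes were called were Msx2-KO replicate 1 (5967) and replicate 2 (9272), and in EpdSCs replicate 1 (6099) and replicate 2 (10376), while EpdSC calls fell to 0 without WT replicate 1 or without WT replicate 2. Depth limits Hey1, Hes1 and Notch3 most in HFSCs, where the smallest WT counts were 1, 22 and 16.

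HFSC genes called numbered 690 with DESeq2, 1407 with limma-trend, 51 with library totals and 2 with at least 10 counts in every library, against 0. Limma-trend called 1 gene of the wider list. The median of the HFSC members, 0.07, was -0.025 with limma-trend and -0.75 with library totals, and from -0.050 to 0.20 with 1 library left out. In EpdSCs the wider list had 4 called with a pseudocount of 10, 3 with equal totals, 3 with mitochondrial and ribosomal RNA left out and 0 with edgeR on recovered counts, where 0 of all genes were called, against 1518.

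Library totals turned Notch1 to -0.41, Jag2 to -0.75 and Dll1 to -0.75 in HFSCs, and moved the median of all genes by -0.86. Jag2 in HFSCs was -0.15 with limma-trend and -0.016 with mitochondrial and ribosomal RNA left out. In EpdSCs Dll1 was -0.20 with equal totals and -0.47 with mitochondrial and ribosomal RNA left out, and Maml3 was 0.038 with edgeR. With 1 library left out, log2 fold changes in HFSCs ran from -0.0054 to 0.66 for Notch1, -0.57 to 0.10 for Notch2, -0.92 to 0.58 for Jag2, -0.035 to 0.20 for Dll1 and -2.37 to 0.46 for Poglut1. In EpdSCs they ran from -0.10 to 1.79 for Jag2, -1.02 to 1.16 for Dll1, -1.62 to 0.81 for Maml2 and -0.47 to 0.40 for Maml3. The causes were not tested.

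With the replicate number as a block, 231 HFSC genes were called, against 0, and 1271 EpdSC genes, against 1518. Members called stayed at 0 in both cell types, and the wider EpdSC list had 0 called, against 1. Under the block the median of the HFSC members was -0.086, Jag2 was -0.15 and Hey1 was -0.026. Same-numbered libraries did not deviate together (correlation of deviations from the group means -0.056 in HFSCs and -0.0225 in EpdSCs). With 2 libraries per group, these values cannot show whether the numbers pair the libraries.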

Other observations

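Several low pathway genes, chosen here after their values were seen, had counts in WT HFSCs and 0 in both KO-labelled HFSC libraries. Normalized counts in WT were 10.6 and 3.94 for Notch4, the receptor known from endothelial cells, 19.5 and 3.94 for the non-canonical ligand Dlk1, 4.07 and 9.86 for Neurl1a, 13.8 and 7.89 for Rbpjl and 8.96 and 5.92 for Hes7. None of them passed the filter on low counts, and the KO-labelled libraries had fewer genes with a count above 0 overall. Another gene of the list with low WT levels, Dtx4, a Deltex protein, went the other way, with 15.5 and 5.92 in WT and 85.1 and 44.0 in the KO-labelled libraries (log2 fold change 2.56, SE 1.23, edgeR adjusted p = 0.417). In EpdSCs Dtx4 had 208 and 135 in WT and 390 and 81.6 in the KO-labelled libraries, with overlap.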
